A study of Mus musculus with 4 samples.

Results

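Hair follicle stem cell genes were followed in dermal white adipose tissue (dWAT), the fat layer that surrounds the lower ends of hair follicles (HFs). The members were chosen by symbol as genes known to mark or control the stem cells of the bulge and the isthmus of the HF, and 7 of 22913 listed genes belong to them: Lgr5, Lgr6, Lhx2, Nfatc1, Sox9, Foxc1 and Tbx1. No filter on measured values was applied, although earlier results of these data were known when the members were chosen. RNA sequencing gave 1 library for each of 4 groups of C57BL/6 mice, so no difference has a replicate error and no p-value is given. OTD is dWAT of old mice (18 months) in telogen, the resting phase of the hair cycle, and YTD is dWAT of young mice (2 months) in telogen. OAD and YAD are dWAT of old and young mice in anagen, the growth phase, which was induced by depilation (hair plucking). Telogen mice were not plucked, so plucking and phase cannot be told apart. The study's methods state that each group was made from 20 mice and that dWAT was scraped from the bottom of the HFs by microdissection once the subcutaneous fat and the panniculus carnosus, a skin muscle, had been taken away. Ages follow the sample titles and the study's methods. The age field of the sample records instead puts YTD at 18 months and OAD at 2, and if that field were right, phase and age could not be told apart.

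The bulge holds slowly cycling stem cells that rebuild the HF in each anagen, and the isthmus above it holds further stem cells that serve the upper HF and the sebaceous gland. LGR5 and LGR6 are receptors for R-spondins, secreted proteins that amplify Wnt signals, and Lgr5 is also expressed in the hair germ below the bulge. LHX2, SOX9, NFATC1, FOXC1 and TBX1 are transcription factors with roles in keeping, activating or renewing these cells, and NFATC1 and FOXC1 are known for holding them in quiescence. Each of these genes is also expressed outside the HF, for example Nfatc1 in endothelial and immune cells and Foxc1 in mesenchyme. dWAT has no HF epithelium of its own, although the lower HF grows down into this layer in anagen, so the levels below are those of RNA in scraped tissue that contains fat, vessels, muscle and whatever HF cells came with it. In such bulk tissue, fewer cells of a type and less RNA per cell cannot be told apart.

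On the mouse genome build GRCm38, the deposited positions place Lgr5 (ENSMUSG00000020140) at chr10:115450311-115587780 on the minus strand and Lgr6 (ENSMUSG00000042793) at chr1:134983301-135105276 on the minus strand. Lhx2 (ENSMUSG00000000247) lies at chr2:38339281-38369733 on the plus strand, and Nfatc1 (ENSMUSG00000033016) at chr18:80606205-80713071 on the minus strand. Sox9 (ENSMUSG00000000567) lies at chr11:112782224-112787760 on the plus strand, Foxc1 (ENSMUSG00000050295) at chr13:31806691-31810643 on the plus strand and Tbx1 (ENSMUSG00000009097) at chr16:18581713-18586969 on the minus strand. No annotated gene shares exon bases with any member.

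Levels are FPKM, fragments per kilobase of a gene and per unit of sequencing depth, as the authors deposited them. The number of fragments was estimated from the lowest values in each library, which lie at the worth of 1 fragment, and came to roughly 19200000 to 24200000 per library. These estimates give each level a 95% exact Poisson interval and each fold a 95% exact binomial interval, both of which cover counting error only. No member was at or under the worth of 3 fragments in any library. Differences are those of log2(FPKM + 1), which understate the change of low genes, and a difference of at least 1 in size is called past the threshold. Mitochondrially encoded genes took up 52.7% (OTD) and 44.7% (YTD) of the summed FPKM in telogen but 18.3% (OAD) and 14.4% (YAD) in anagen, so how libraries are scaled bears on each phase comparison.

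In both ages, 6 of the 7 members were higher in anagen than in telogen by at least 1 on the log2 scale. Nfatc1 was lower by at least 1 in both. Of all genes with a value above 0, 16.1% were higher and 16.7% lower in YAD than YTD by this threshold. In OAD against OTD these shares were 16.1% and 15.6%. The median difference of the members was 1.77 in young and 2.25 in old mice, beside 0.02 and 0.01 over all genes. Per unit of basal keratinocyte genes 4 of the 6 were lower in anagen. That scaling moved the median of all genes to -2.28 in young and -2.97 in old mice, with 72.3% and 77.5% lower by at least 1. Relative to that median the 6 members ranged from 0.68 to 2.64 in young and from 1.23 to 4.46 in old mice. When each library was rescaled to a sum of 1000000 (TPM), 33.4% of all genes were higher and 7.23% lower in young mice, and 27.8% higher and 8.48% lower in old mice, and the 7 members kept their directions past the threshold. The comparisons by age were smaller. Of the members, only Lhx2 in telogen passed the threshold by age on the deposited scale.

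**Figure D1:**
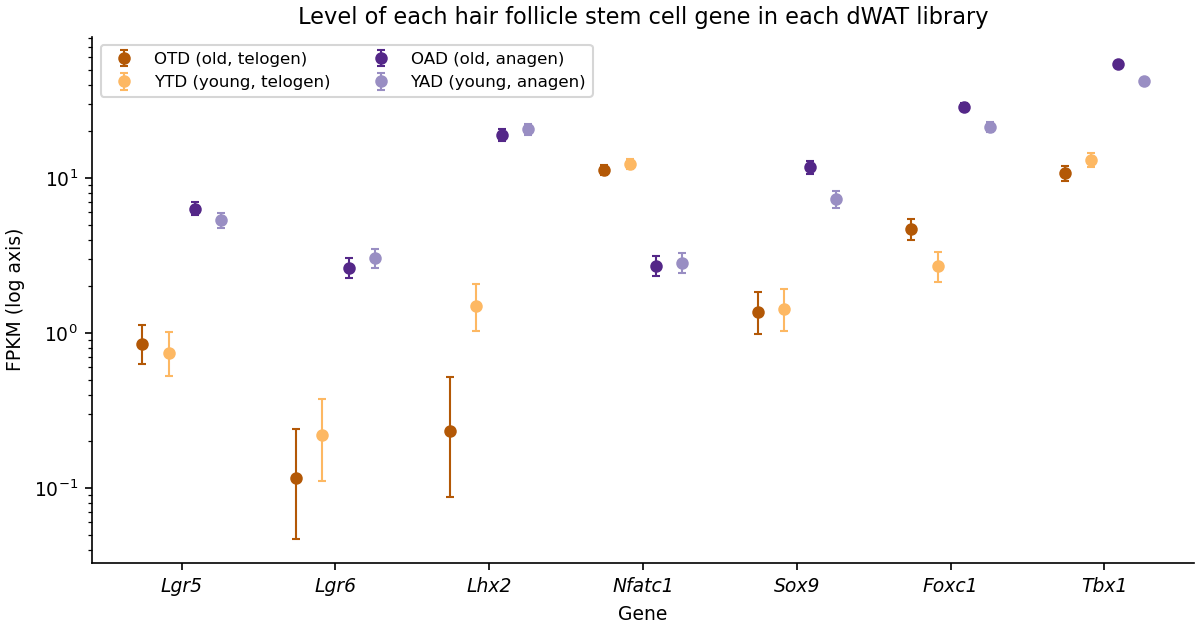
FPKM of each hair follicle stem cell gene (log axis) in the 4 dWAT libraries, with 95% counting intervals as bars. Lgr5, Lgr6, Lhx2, Sox9, Foxc1 and Tbx1 lie higher in both anagen libraries than in both telogen libraries (this turns for 4 of them per unit of basal keratinocyte genes), and Nfatc1 lies lower. Under that scaling 72.3% of all genes in young and 77.5% in old mice were lower in anagen by at least 1 (log2).

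The receptors were low in telogen. Lgr5 was at 0.846 FPKM in OTD and 0.739 in YTD, against 6.33 in OAD and 5.33 in YAD. The anagen libraries were thus both far above the telogen libraries, and the intervals of a young and an old library of the same phase overlapped. The level of Lgr5 was 7.22-fold (5.12 to 10.2) higher in YAD than YTD and 7.49-fold (5.49 to 10.2) higher in OAD than OTD. By age, its fold in anagen was 1.19 (1.03 to 1.38), and in telogen 1.15 (0.737 to 1.80).

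Lgr6 was the lowest member in both telogen libraries, at 0.116 FPKM in OTD and 0.219 in YTD, against 2.65 in OAD and 3.03 in YAD. The telogen levels rest on about 6.93 and 12.2 fragments, so their folds are wide. The ratio of YAD to YTD was 13.8 (7.90 to 27.8) and that of OAD to OTD was 22.9 (10.8 to 57.0). On the log2 scale with a pseudocount of 1, which shrinks such low values, the differences were 1.72 and 1.71. Old and young libraries did not differ beyond counting error in telogen, with a fold of 0.529 (0.181 to 1.50), or in anagen, with a fold of 0.874 (0.710 to 1.07).

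Lhx2, a LIM homeobox factor of the bulge and hair germ, had the widest range of the members. It was at 0.233 FPKM in OTD and 1.50 in YTD, against 19.0 in OAD and 20.6 in YAD. The level in OTD rests on about 5.86 fragments and that in YTD on about 35.3, and their intervals (0.0875 to 0.519 FPKM and 1.04 to 2.07 FPKM) did not overlap. The anagen levels of old and young mice did overlap. Lhx2 was 13.7-fold (9.85 to 20.1) higher in YAD than YTD and 81.6-fold (36.4 to 218) higher in OAD than OTD.

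Sox9, which specifies bulge stem cells and the outer root sheath, was at 1.37 FPKM in OTD and 1.44 in YTD, against 11.8 in OAD and 7.28 in YAD. The telogen levels did not differ beyond counting error, and the anagen level of old mice lay above that of young mice with no overlap of their intervals. The phase folds were 5.07 (3.66 to 7.23) in young and 8.60 (6.28 to 12.1) in old mice. In anagen Sox9 was 1.62-fold (1.38 to 1.89) higher in OAD than YAD, a log2 difference of 0.63.

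Foxc1, a forkhead factor that activated bulge stem cells express and that brings them back to rest, was at 4.70 FPKM in OTD and 2.69 in YTD, against 28.6 in OAD and 21.3 in YAD. It was the only member whose old library lay above the young one beyond counting error in both phases. Its age fold was 1.75 (1.34 to 2.30) in telogen and 1.34 (1.22 to 1.47) in anagen, log2 differences of 0.63 and 0.41, under the threshold on the deposited scale. They were 1.25, past the threshold, and 0.13 per unit of basal keratinocyte genes. That scaling moved the telogen median of all genes to 0.39, and relative to it Foxc1 was at 0.86, under the threshold. Of all genes, 12.6% were then higher in OTD than YTD by at least 1. The phase folds were 7.93 (6.35 to 10.03) in young and 6.09 (5.17 to 7.23) in old mice.

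Tbx1, a T-box factor needed for repeated renewal of bulge stem cells, was the highest member per length in YTD, OAD and YAD. Its level was 10.7 FPKM in OTD and 13.2 in YTD, against 54.8 in OAD and 42.0 in YAD. The order of the ages differed between the phases, with OTD at 0.816-fold (0.700 to 0.948) of YTD and OAD at 1.30-fold (1.22 to 1.40) of YAD. Its phase folds, 3.19 (2.84 to 3.58) in young and 5.09 (4.53 to 5.75) in old mice, were the smallest of the 6 members that were higher in anagen.

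Nfatc1, which holds bulge stem cells at rest downstream of calcineurin and BMP signals, ran the other way. It was at 11.3 FPKM in OTD and 12.4 in YTD, against 2.71 in OAD and 2.84 in YAD. Both telogen libraries lay above both anagen libraries, and within a phase the ages did not differ beyond counting error. The level was 4.36-fold (3.70 to 5.17) higher in YTD than YAD and 4.18-fold (3.54 to 4.94) higher in OTD than OAD. Nfatc1 held 38.5% of the summed FPKM of the members in OTD and likewise in YTD, but 2.15% in OAD and 2.77% in YAD. The sum over the members was 29.3 FPKM in OTD and 32.2 in YTD, against 125.8 in OAD and 102.5 in YAD.

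The order of the members per length therefore differed between the phases. In OTD, Nfatc1 and Tbx1 led with overlapping counting intervals, followed by Foxc1, by Sox9 and Lgr5, which overlapped, and by Lhx2 and Lgr6, which overlapped. In YTD, Tbx1 and Nfatc1 again overlapped at the top, Foxc1 followed, Lhx2 and Sox9 overlapped, and Lgr5 and Lgr6 came last without overlap. In OAD the order was Tbx1, Foxc1, Lhx2, Sox9 and Lgr5, each clear of the next, with Nfatc1 and Lgr6 overlapping at the bottom. In YAD, Foxc1 and Lhx2 overlapped behind Tbx1, Sox9 and Lgr5 followed, and Lgr6 and Nfatc1 overlapped at the bottom. Among all genes above 0, Tbx1 stood at percentile 91.7 in OAD and Lgr6 at percentile 8.06 in OTD.

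By age in telogen, 2 members were higher in OTD than YTD and 5 were lower, and their median difference was -0.12 beside -0.03 over all genes. Of all genes, 1.67% were higher and 1.93% lower by at least 1, a split that became 3.81% and 1.57% after scaling to a sum without mitochondrial genes, under which the median of the members was 0.08. Lhx2, at a log2 difference of -1.02, was the only member past the threshold and sat just beyond it, and in TPM its difference was -0.90. On the linear scale YTD was 6.46-fold (2.60 to 18.2) above OTD. Markers of hair matrix and shaft moved with it: 15 of 15 were lower in OTD than YTD, 6 of them by at least 1, with a summed level of 252 FPKM in OTD and 450 in YTD and none at 0. Of 10 basal keratinocyte markers, 8 were lower in OTD, with a summed level of 123 FPKM against 188 and none at 0. Per unit of basal keratinocyte genes the log2 difference of Lhx2 was -1.46, and -1.84 relative to the median of all genes. Other cell type markers differed as well. Skeletal muscle markers were lower in OTD in 12 of 12 cases (median -0.63), while 8 of 8 blood endothelial (0.62), 8 of 10 fibroblast and dermal papilla (0.62), 6 of 6 Schwann cell (0.48), 4 of 5 macrophage and osteoclast (0.93), 4 of 5 lymphatic (0.47) and 7 of 10 adipocyte markers (0.29) were higher. Foxc1, which was higher in OTD too, stood beside fibroblast and dermal papilla markers with a summed level of 1144 FPKM in OTD and 641 in YTD. The part of any of these markers in the differences of Lhx2 and Foxc1 was not tested.

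By age in anagen, 4 members were higher in OAD than YAD and 3 were lower, and none passed the threshold. The median was 0.21, beside 0.0 over all genes, of which 0.727% were higher and 0.454% lower by at least 1. In TPM these shares were 0.590% and 0.994%, and the median of the members was 0.02. The 4 members that were higher in OAD, namely Lgr5, Sox9, Foxc1 and Tbx1, had counting intervals of the fold clear of 1, and the 3 others did not. Per unit of basal keratinocyte genes Lgr5 turned to -0.01, while Sox9, Foxc1 and Tbx1 stayed higher at 0.30, 0.13 and 0.10. Of the basal keratinocyte markers, 8 of 10 were higher in OAD, with a summed level of 3915 FPKM against 3104 in YAD. So were 10 of 10 adipocyte (median 0.31), 8 of 8 blood endothelial (0.30) and 10 of 12 skeletal muscle markers (0.41), while 8 of 8 proliferation genes (-0.35), 5 of 5 macrophage and osteoclast (-0.15) and 8 of 10 fibroblast and dermal papilla markers (-0.24) were lower. The part of these cell types in the differences of the members was not tested.

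**Figure D2:**
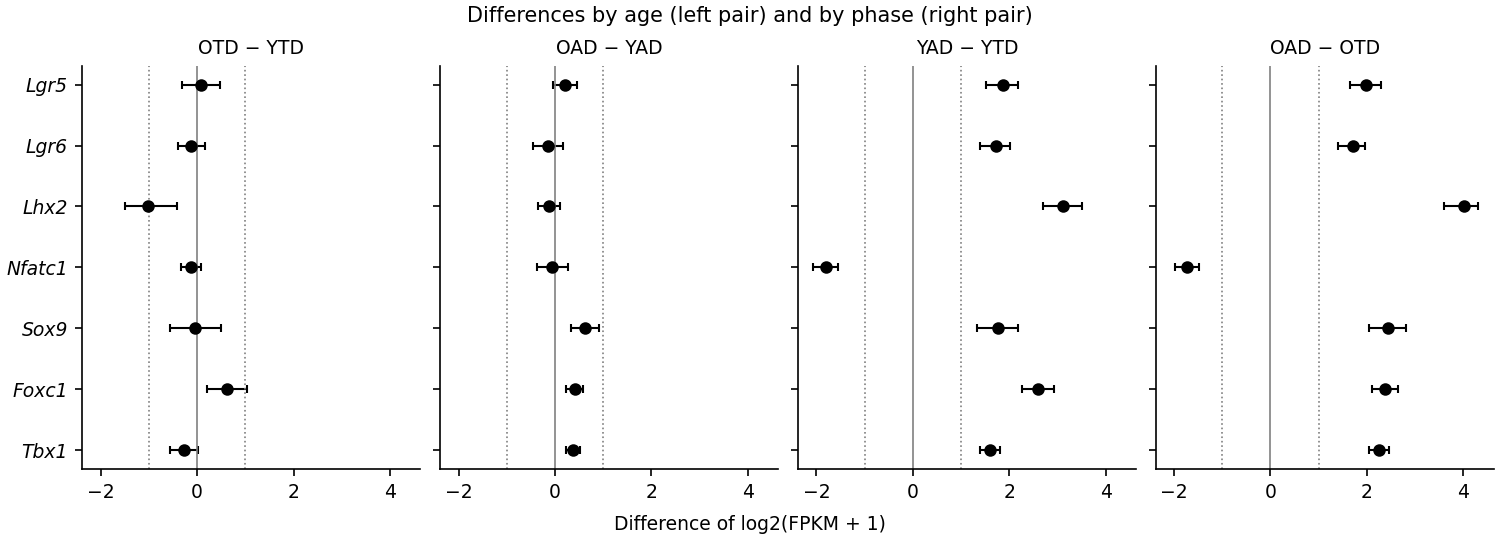
Difference of log2(FPKM + 1) of each gene by age (OTD − YTD and OAD − YAD) and by phase (YAD − YTD and OAD − OTD), with the threshold of 1 as dotted lines. Each bar spans the extremes that the 95% counting intervals of both levels allow, so it is wider than a 95% interval of the difference. By age, the bars of Tbx1 in telogen and Lgr5 in anagen span both signs, although their fold intervals exclude 1. The phase differences of 6 genes lie above 1.60 (4 of them turn per unit of basal keratinocyte genes) and those of Nfatc1 at -1.80 and -1.73, while by age Lhx2 in telogen, at -1.02, is alone past a dotted line. Per unit of basal keratinocyte genes, 72.3% of all genes in young and 77.5% in old mice were lower in anagen by at least 1.

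Promoter sequence is shown for 4 of the members that were higher in anagen on the deposited scale. It can be read side by side with the recognition letters of the factors encoded by other members. The RefSeq promoter table held no entry for Lgr5 and Sox9, and the promoter of Nfatc1 is not reported here. Each run covers the 250 bases before a RefSeq start on GRCm38.p6, read 5′ to 3′ on the strand of the gene. Capitals mark each match of GGAAA (the NFAT core) or ACAAT (a SOX core) on either strand. The Lgr6 run is chr1:135105277-135105526 on the minus strand, the Lhx2 run chr2:38339031-38339280 on the plus strand, the Foxc1 run chr13:31806396-31806645 on the plus strand and the Tbx1 run chr16:18588900-18589149 on the minus strand.
Lgr6: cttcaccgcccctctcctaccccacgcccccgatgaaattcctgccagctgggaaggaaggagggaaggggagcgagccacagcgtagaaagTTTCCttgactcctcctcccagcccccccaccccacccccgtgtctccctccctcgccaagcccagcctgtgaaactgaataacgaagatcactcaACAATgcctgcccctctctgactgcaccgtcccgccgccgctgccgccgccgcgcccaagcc
Lhx2: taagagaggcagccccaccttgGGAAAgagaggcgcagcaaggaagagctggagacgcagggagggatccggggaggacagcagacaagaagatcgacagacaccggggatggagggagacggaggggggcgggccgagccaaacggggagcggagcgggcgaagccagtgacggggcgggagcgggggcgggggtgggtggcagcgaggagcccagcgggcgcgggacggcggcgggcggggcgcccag
Foxc1: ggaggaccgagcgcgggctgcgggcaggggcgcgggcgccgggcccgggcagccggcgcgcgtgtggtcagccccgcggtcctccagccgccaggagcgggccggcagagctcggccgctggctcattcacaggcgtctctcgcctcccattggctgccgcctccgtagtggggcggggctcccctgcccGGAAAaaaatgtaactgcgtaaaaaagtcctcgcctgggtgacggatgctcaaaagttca
Tbx1: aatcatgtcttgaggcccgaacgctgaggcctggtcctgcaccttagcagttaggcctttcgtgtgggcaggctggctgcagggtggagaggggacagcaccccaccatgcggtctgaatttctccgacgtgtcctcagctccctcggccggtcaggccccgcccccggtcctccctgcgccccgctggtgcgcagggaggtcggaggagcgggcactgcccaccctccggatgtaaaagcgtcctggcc

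The NFAT letters GGAAA were matched at -158 in Lgr6, at -228 in Lhx2 and at -60 in Foxc1, counting the first base of the match back from the start. They are common letters, found in 55.6% of the 32851 promoters of this length. The SOX letters ACAAT were matched at -62 in Lgr6 and in 27.7% of all promoters. None of the 4 runs held TAATTA (LHX), TAAACA (FOX) or AGGTGT (TBX) on either strand, which were found in 4.84%, 12.0% and 11.8% of all promoters. Tbx1 held none of the motifs in this window, which belongs to a start 1930 bases from the deposited one. No motif contains another. The runs had a median GC content of 69.0%, beside 52.4% over all promoters.

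Related genes could share reads with a member, and the longest exact stretches shared between coding sequences are shown for the pairs in which they are longest. The first lies at bases 247 to 290 of the coding sequence of Sox9 and is shared with Sox10, a factor of Schwann cells and melanocytes. The second lies at bases 439 to 491 of Foxc1 and is shared with Foxc2, its close relative. All letters are lower case since no part is singled out.
Sox9 and Sox10: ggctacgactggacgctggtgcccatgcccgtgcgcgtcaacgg
Foxc1 and Foxc2: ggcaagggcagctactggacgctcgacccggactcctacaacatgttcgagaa

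These runs of 44 and 53 bases are short beside coding lengths of 1524 and 1662 bases, and how fragments that match both genes were counted is not given in the sources used here. Sox10 did not follow Sox9: it was at 8.55 FPKM in OTD and 4.35 in YTD, against 5.02 in OAD and 8.43 in YAD. Foxc2 did not follow Foxc1 by phase, being at 2.71 FPKM in OTD and 1.04 in YTD, against 0.781 in OAD and 1.004 in YAD, although it was also higher in OTD than YTD. Lgr5 shared at most 18 bases in a row with Lgr6, and Lhx2 at most 17 with Lhx9. Of the 13 paralogues examined, 12 were above 0 in young mice. None of these was higher and 3 were lower in anagen by at least 1, beside 16.1% and 16.7% of all genes. In old mice 1 was higher and 4 were lower, beside 16.1% and 15.6% of all genes. The one that was higher was Lgr4, the third receptor of the family, with 1.50 in old and 0.97 in young mice, and the lowest was the T-box gene Tbx15 at -2.10 and -3.01. Tbx3 and Nfatc2 were also lower in both ages, at -1.28 and -1.22 in old and -1.49 and -1.77 in young mice, and Foxc2 in old mice at -1.06. Per unit of basal keratinocyte genes none of the paralogues was higher by 1, beside 2.01% of all genes in young and 1.93% in old mice. Under that scaling 72.3% of all genes in young and 77.5% in old mice were lower by at least 1.

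Other genes of the HF epithelium were set beside the members. Of 15 further bulge and hair germ genes, 14 were above 0 and Krt24 was at 0 in each library. In young as in old mice 7 were higher and 2 lower in anagen by at least 1. Of all genes, 16.1% were higher in either age, and 16.7% in young and 15.6% in old mice were lower. The keratin Krt15, a bulge marker, differed by 4.30 in young and 5.61 in old mice, at 2.22 FPKM in OTD and 6.15 in YTD, against 156 in OAD and 139.5 in YAD. The surface marker Cd34 was lower in anagen by the most, at -2.02 and -2.37, followed by Cd200 at -1.12 and -1.32, and both are also expressed by vessels or stroma. Nfatc1 shared its direction with Cd34 and Cd200, and the 6 other members shared theirs with Krt15, Cdh3, Vdr, Hopx, Gli1, Col17a1 and Runx1. Apart from Krt15, these ranged from 1.22 (Runx1) to 3.89 (Cdh3) in young and from 1.46 (Runx1) to 4.48 (Vdr) in old mice. In telogen Krt15 was also lower in OTD than YTD, by a log2 difference of -1.15, as Lhx2 was. Per unit of basal keratinocyte genes 2 of the 14 were higher by at least 1 in either age, and 8 in young and 9 in old mice were lower. Of all genes, 2.01% were then higher and 72.3% lower in young mice, and 1.93% higher and 77.5% lower in old mice.

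Of 7 further genes of the isthmus and the infundibulum, 4 were higher in YAD than YTD by at least 1 and none lower. Of all genes, 16.1% were higher and 16.7% lower. In OAD against OTD 5 of the 7 were higher and 1 lower, beside 16.1% and 15.6% of all genes. Krt17 led them with 4.35 and 5.49, followed by Prdm1, a repressor found in sebaceous cells, with 3.12 and 3.28. Cst6 differed by 1.26 and 1.74, and Plet1 by 0.91 and 1.63. Krt79, a keratin of the upper HF, was past the threshold by age in both phases, higher in old mice by 1.22 in telogen and 1.23 in anagen, whereas Lgr6, the isthmus member, differed by -0.13 and -0.14. Gata6 was the gene lower in old anagen, at -1.10. The stem cell regulator Lrig1 differed by -0.56 and -0.11. Of 5 sebaceous genes, only Elovl3 passed the threshold by phase, at 4.76 and 4.58, and up to 2 of them were at 0 in a library. Per unit of basal keratinocyte genes 1 of the 7 isthmus genes was higher by 1 in either age, and 4 in young and 5 in old mice were lower. The shares of all genes were 2.01% higher and 72.3% lower in young mice, and 1.93% and 77.5% in old mice.

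The receptors belong to a pathway in which R-spondins bind LGR proteins and thereby keep the ubiquitin ligases ZNRF3 and RNF43 from removing Wnt receptors. Of 14 other genes of this pathway, 10 were higher in YAD than YTD by at least 1 and 9 in OAD than OTD, and none was lower. Of all genes, 16.1% were higher in either age, and 16.7% in young and 15.6% in old mice were lower. Per unit of basal keratinocyte genes 4 and 3 of the 14 were higher and 5 and 8 lower. Under that scaling 2.01% of all genes were higher and 72.3% lower in young mice, and 1.93% and 77.5% in old mice. Among the ligands, Rspo4 was at 0.0261 FPKM in OTD and 0.166 in YTD against 10.9 in OAD and 6.94 in YAD. Rspo1 and Rspo3 differed by 1.80 and 1.43 in young mice and by 1.51 and 1.70 in old mice. The ligases Rnf43 and Znrf3 differed by 3.15 and 2.04 in young mice and by 3.27 and 2.01 in old mice, and Axin2, a Wnt target, by 2.28 and 2.00. The nuclear factor Lef1 had the largest difference, 4.32 and 5.23, and was also lower in OTD than YTD by a log2 difference of -1.06. Tcf7, a relative of Lef1, differed by 3.71 and 3.40, Rspo2 by 1.39 and 0.95, Lgr4 by 0.97 and 1.50 and Ctnnb1, which encodes beta-catenin, by 1.05 and 0.84. The coreceptor Lrp5 was the lowest, at -0.25 and 0.13. By age in anagen no gene of the pathway passed the threshold.

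NFATC1 enters the nucleus once the phosphatase calcineurin has acted on it. Of 13 other genes of calcineurin and NFAT signalling, 1 was higher and 6 lower in YAD than YTD by at least 1. In OAD against OTD 1 was higher and 4 lower. Of all genes, 16.1% were higher and 16.7% lower in young mice, and 16.1% higher and 15.6% lower in old mice. In TPM 2 of the 13 were higher and 3 lower in young mice, beside 33.4% and 7.23% of all genes. In old mice 1 was higher and 2 lower in TPM, beside 27.8% and 8.48% of all genes. The catalytic subunit Ppp3ca differed by -2.17 and -1.72, the regulatory subunit Ppp3r1 by -1.76 and -1.05 and the relative Nfatc2 by -1.77 and -1.22. Rcan2, a regulator of calcineurin, was the lowest at -2.92 and -2.28. Ppp3cb and Ppp3cc passed the threshold in young mice only, at -1.52 and -1.19, beside -0.92 and -0.79 in old mice. The gene that was higher was Cdk4, a cell cycle kinase that NFATC1 is known to repress in the bulge, at 32.0 FPKM in OTD and 29.7 in YTD, against 87.2 in OAD and 110.9 in YAD, and it differed by 1.87 and 1.42. No gene of the list passed the threshold by age. Several genes of this list, such as Ppp3ca and Rcan2, are also expressed in muscle. Of 12 skeletal muscle markers, all were lower in anagen in both ages, with summed levels of 59046 FPKM in OTD and 93030 in YTD, against 14068 in OAD and 10609 in YAD and none at 0, and their part in these differences was not tested.

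**Figure D3:**
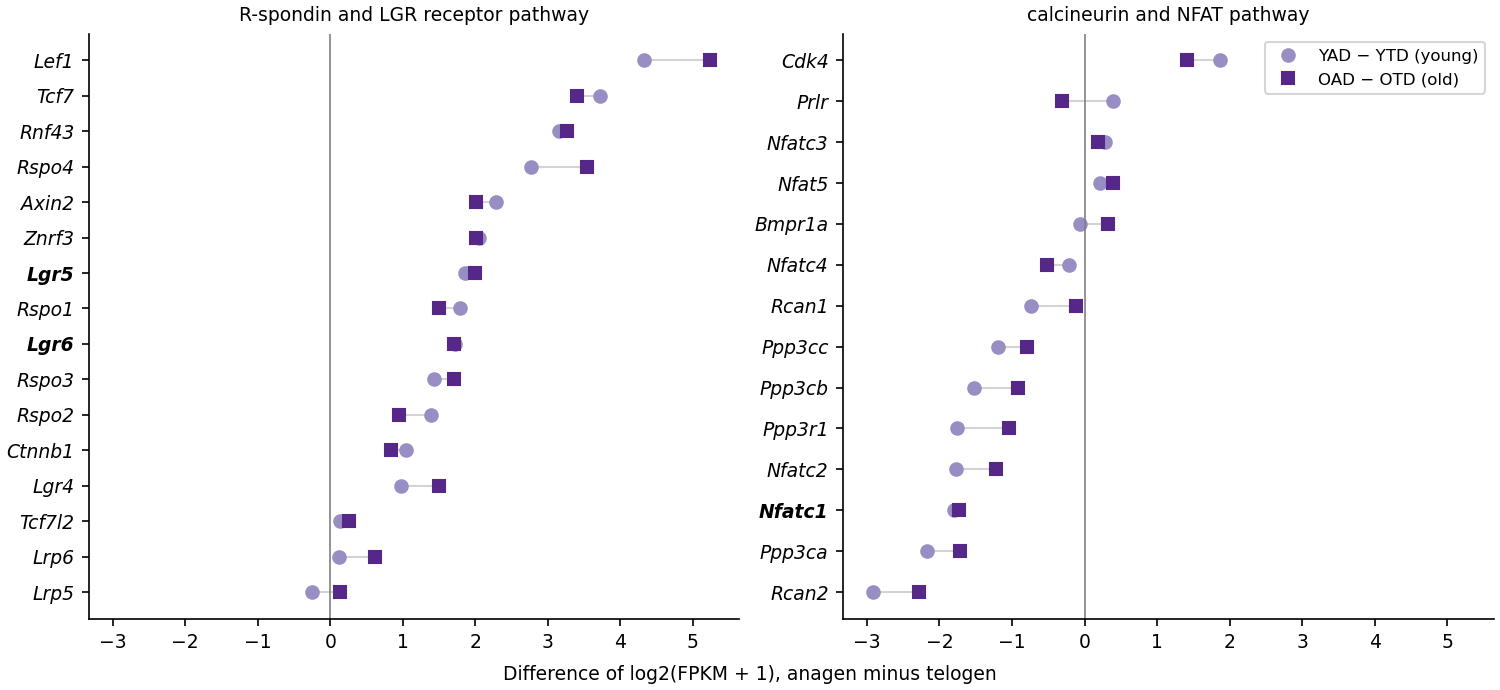
Difference of log2(FPKM + 1) between anagen and telogen in young (circles) and old mice (squares) for the genes of R-spondin and LGR signalling with Lgr5 and Lgr6 in bold, and of calcineurin and NFAT signalling with Nfatc1 in bold. On the deposited scale Lgr5 and Lgr6 lie past 1, as do 10 young and 9 old values of the other genes of their pathway, and Nfatc1 lies near the low end of its own. Per unit of basal keratinocyte genes 4 and 3 of the other values lie past 1. Lgr5 is then at -0.33 in young and -0.89 in old mice and Lgr6 at 0.19 and 0.13. Under that scaling 72.3% of all genes in young and 77.5% in old mice were lower by at least 1.

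Of 5 partners of LHX2 in transcription, the adaptors Ldb1 and Lmo4 were higher in anagen by 1.85 and 1.16 in young and 1.40 and 1.14 in old mice. Ldb2 was lower, at -1.73 and -2.23. The 2 remaining partners, Ssbp2 and Ssbp3, stayed under the threshold. Of all genes, 16.1% were higher by at least 1 in either age, and 16.7% in young and 15.6% in old mice were lower. Per unit of basal keratinocyte genes all 5 partners were lower by at least 1 in both ages, as were 72.3% of all genes in young and 77.5% in old mice. Lhx2 itself was at 0.36 and 1.49.

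Cell type markers moved with the phase in the same libraries. Of 10 basal keratinocyte markers, 8 were higher by at least 1 in YAD and 9 in OAD, with medians of 3.70 and 4.26, summed levels of 123 FPKM in OTD and 188 in YTD, against 3915 in OAD and 3104 in YAD, and none at 0. All 15 matched hair matrix and shaft markers were higher, with medians of 5.67 and 6.75 and summed levels from 252 to 450 FPKM in telogen and from 19520 to 24911 in anagen. All 8 proliferation genes were higher, with medians of 3.37 and 3.28, which became 0.56 and -0.04 per unit of basal keratinocyte genes. The 6 members other than Nfatc1 had medians of 1.81 and 2.31, under those of the keratinocyte and hair lists. All 10 adipocyte markers were lower in anagen, with medians of -1.66 in either age and summed levels of 12929 FPKM in OTD and 11921 in YTD, against 3543 in OAD and 2556 in YAD. All 8 blood endothelial markers were lower by at least 1, with medians of -1.52 and -1.85 and summed levels of 455, 294, 118 and 89.2 FPKM in OTD, YTD, OAD and YAD, beside -1.80 and -1.73 for Nfatc1. All 5 macrophage and osteoclast markers were lower too, with medians of -1.36 and -2.63 and summed levels of 219, 125, 50.5 and 56.8 FPKM in that order. Of 10 fibroblast and dermal papilla markers, Corin, Alx4 and Bmp4 were higher by at least 1 in both ages, and 5 in young and 7 in old mice were lower. All 5 lymphatic markers were lower, with medians of -0.60 and -1.30, and the 6 Schwann cell markers had medians of -0.97 and -1.59. No marker of these lists was at 0. The part of any of these cell types in the levels of the members was not tested.

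**Figure D4:**
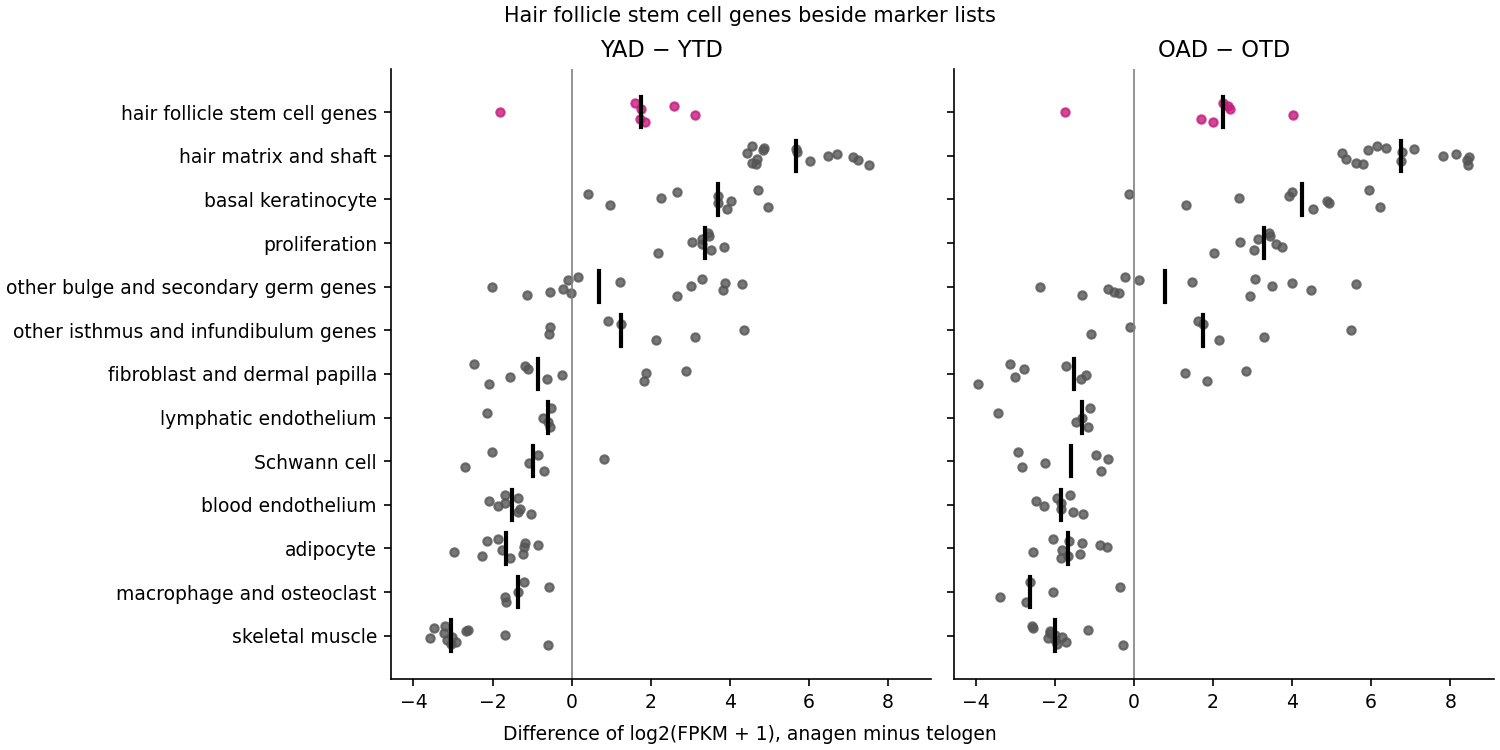
Difference of log2(FPKM + 1) between anagen and telogen in young (left) and old mice (right), each dot a gene above 0 and each black line the median of a list. The members have medians of 1.77 and 2.25 (-0.33 and -0.89 per unit of basal keratinocyte genes), between the hair and keratinocyte lists, which are highest, and the muscle, macrophage, adipocyte and endothelial lists, which are lowest. Per unit of basal keratinocyte genes the median of all genes was -2.28 in young and -2.97 in old mice.

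Scaled to the geometric mean of the basal keratinocyte markers, the phase comparison of the members looked different. Lgr5 was then at -0.33 in young and -0.89 in old mice, Sox9 at -0.76 and -0.86, Foxc1 at -0.32 and -1.44, and Tbx1 at -1.61 and -1.74. Lgr6 stayed near 0 at 0.19 and 0.13, and Lhx2 at 0.36 in young but 1.49 in old mice. Nfatc1 was the lowest, at -4.39 and -4.94. This scaling moved the median of all genes to -2.28 and -2.97. Relative to that shift the 6 other members ranged from 0.68 (Tbx1) to 2.64 (Lhx2) in young and from 1.23 (Tbx1) to 4.46 (Lhx2) in old mice.

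**Figure D5:**
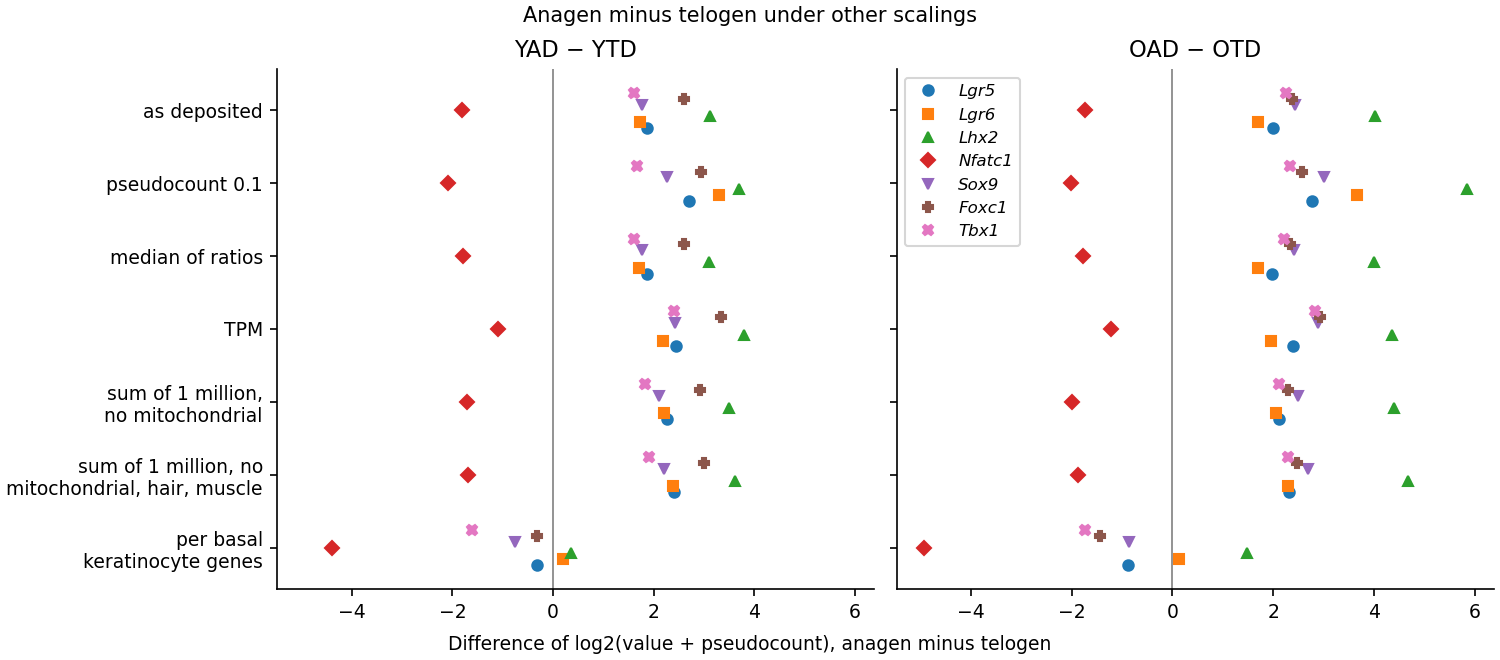
Difference between anagen and telogen of each gene in young (left) and old mice (right) on the deposited scale, with a pseudocount of 0.1 and under 5 other scalings. Lhx2, Lgr6, Lgr5, Sox9, Foxc1 and Tbx1 stay above 0 in each row but the last, per unit of basal keratinocyte genes, where Lgr5, Sox9, Foxc1 and Tbx1 lie below 0, and Nfatc1 lies below 0 in each row. In the last row the median of all genes was -2.28 in young and -2.97 in old mice.

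The members did not share a single pattern over the libraries. Likeness was measured as the distance between log2(FPKM + 1) profiles centred on their own mean over the 4 libraries, so only 4 points enter each profile and genes that differ mostly by phase lie close together. Among the members, Lgr5 and Tbx1 were nearest, at 0.28, Sox9 and Tbx1 at 0.30 and Lgr5 and Sox9 at 0.35, whereas the distance of Lhx2 to any other member was at least 1.63 and that of Nfatc1 at least 3.48. Among 13568 genes compared, 91 lay within 0.25 of Lgr5, with Elovl7, Map3k6 and Syt7 nearest. Lgr6 had 223 within that distance, Khsrp, Tmem97 and Cep164 being nearest. For Lhx2 there were 2, Mdfi at 0.15 and Zfp185 at 0.21, followed by Slc7a8 at 0.26. Nfatc1 had 108, with Fcrls, Lifr and 9330159F19Rik nearest. Sox9 had 28, with Ephb1, Ero1l and Plb1 nearest. Foxc1 had 11, with Carmil1 and Ccser1 among the nearest, and Tbx1 had 38, with Mcc, Tmem139 and Dhrs9 nearest. Like Lhx2, its nearest gene Mdfi was at 0.734 FPKM in OTD and 2.06 in YTD, against 24.5 in OAD and 26.2 in YAD.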

How the data were processed

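The authors deposited FPKM per gene for each of 4 libraries, with the position and length of each feature on GRCm38. The submitters' processing notes name TopHat2 and bcl2fastq, and the counting tool, the annotation and any use of strand are not given in the sources used here. Of the listed lengths, 97.0% are multiples of 3, and that of each member equals a coding length in GENCODE M21, so FPKM is per coding length. Of 22166 Ensembl identifiers, 21750 were matched to a symbol, and all 7 members were found. FPKM were used as deposited. Differences are of log2(FPKM + 1), with a threshold of 1 and no test, since there is 1 library per group. Genes above 0 in either library entered each comparison. Depth was estimated from features of 2000 to 4000 bases, whose lowest values gather at the worth of 1 fragment, at 20600000 fragments for OTD and 19200000 for YTD, and 24200000 for OAD and 22600000 for YAD. These estimates are rough. The genes named are the 7 members, the highest, the lowest and those past the threshold from each list of related genes, with a few further genes of those lists named after their values were seen (Lrig1, Sox10, Ssbp2, Ssbp3, Krt24), and the 3 nearest profiles to each member among genes reaching an FPKM of 1, of which 1 is not reported here. The members and lists were chosen with earlier results of these data known. The steps were tested on simulated data. Alternatives were pseudocounts of 0.1 and 0.01, a minimum FPKM of 1, a threshold of 0.58, and scaling by the median of ratios, to TPM, to a sum of 1000000 without mitochondrial genes or also without hair and muscle genes, and to the basal keratinocyte markers. RefSeq promoters are shown for 4 of the 7 members. None was listed for Lgr5 and Sox9, and that of Nfatc1 is not reported here. Python 3.11.15, numpy 2.4.6, pandas 2.3.3, scipy 1.17.1 and matplotlib 3.10.9 were used.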

Additional observations from a re-analysis of the deposited data

Results flagged for a closer look

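For Sox9 and Tbx1 the age difference ran in opposite directions in the 2 phases, each with 1 library per group, so that the single samples of the groups moved opposite ways. Sox9 differed by -0.04 in telogen and 0.63 in anagen, a gap of 0.67 on the log2 scale, and the telogen value lies within counting error of 0. Tbx1 differed by -0.27 in telogen and 0.37 in anagen, a gap of 0.65. Neither difference between phases was tested, since no replicates exist. Per unit of basal keratinocyte genes both members were higher in the old library in both phases, Sox9 by 0.39 and 0.30 and Tbx1 by 0.24 and 0.10.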

How the results depend on the processing

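Values of single members under an alternative were set against the span that the counting intervals of both levels allow at a pseudocount of 1. This span is wider than a counting interval of the difference itself. Of these values, 142 stayed within it and 72 moved beyond it without a turn of a difference past the threshold. A minimum FPKM of 1 leaves the values it keeps unchanged, so those among the 142 could not have moved. The span was not rebuilt for pseudocounts of 0.1 and 0.01. The 142 therefore do not measure how robust the members are. Past the threshold, 8 differences turned direction. These 8 arose per unit of basal keratinocyte genes in the phase comparisons (young, then old): Foxc1 -0.32 and -1.44, Lgr5 -0.33 and -0.89, Sox9 -0.76 and -0.86, Tbx1 -1.61 and -1.74. Another 8 values, under the threshold and all by age, changed sign as well: without mitochondrial genes, also without hair and muscle genes and per unit of basal keratinocyte genes, Nfatc1 in telogen was 0.08, 0.03 and 0.40 and Sox9 0.10, 0.07 and 0.39, and under the last Tbx1 in telogen was 0.24 and Lgr5 in anagen -0.01. Per unit of keratinocyte genes the phase medians turned too, to -0.33 and -0.89, with 2 and 4 members past the threshold in place of 7, and in telogen by age the median was 0.39 with Lhx2 and Foxc1 (1.25) past it, 2 members in all. This scaling divides by markers that were themselves mostly higher in anagen and, in telogen, mostly lower in OTD than YTD. It moved the median of all genes to -2.28 and -2.97 by phase, 0.39 by age in telogen and -0.12 by age in anagen. By phase, 2.01% of all genes were then higher and 72.3% lower by at least 1 in young mice, and 1.93% and 77.5% in old mice. By age in telogen these shares were 12.6% and 1.45%. Why the members turned was not tested. The phase median in young mice was 2.70 and 2.83 with pseudocounts of 0.1 and 0.01, 2.42 in TPM, 2.21 without mitochondrial genes and 2.39 also without hair and muscle genes. In old mice it was 2.77, 2.89 and 2.83 under the first 3 of these. TPM moved the median of all genes to 0.45 in young and 0.32 in old mice, and relative to it the medians of the members were 1.97 and 2.51. By age in telogen the median was 0.08 without mitochondrial genes (-0.02 relative to all genes), and 0 members passed in TPM. At a threshold of 0.58, 2 members passed by age in telogen and 1 in anagen. Of all genes, 6.83% were then higher and 9.41% lower by age in telogen, and 3.05% and 2.03% in anagen. With a minimum FPKM of 1, 5 members remained by age in telogen. Depth limits Lgr6 and Lhx2 in telogen, and leaving out a replicate was not possible with 1 library per group. No paired analysis was possible because each group has 1 library and no test was made.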
